A study of Mus musculus with 18 samples.

Results

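Removal of arginine for 3 h from wild-type mouse embryonic stem cells was compared with the same medium holding all amino acids. The comparison used 6 of the 18 RNA-seq libraries of the series: the 3 labelled Wt_Arg and the 3 labelled Wt_Unstarved, chosen by their labels alone. E14 is an embryonic stem cell line, grown here on gelatin with 15% fetal bovine serum and leukaemia inhibitory factor (LIF) at 10 ng/ml, per the labels. On the day after seeding, Wt_Arg cells received SILAC medium without arginine but with lysine, glucose, GlutaMAX, LIF and 5% dialyzed serum. Wt_Unstarved cells received that medium complete in all amino acids, so both groups had the change to low, dialyzed serum in common. Both groups are labelled wild type and carry no transgene in the labels. The other 12 libraries are Wt_Leu (the same starvation for leucine) and the 3 matching groups labelled Eif2ak4-/- (Gcn_Arg, Gcn_Leu and Gcn_Unstarved), and they enter below only where a difference from the arginine response was tested. Whether the 3 replicates of a group were separate cultures is not stated, so the p-values rest on a spread between samples that may be technical. Each genotype has 1 unstarved group, shared by its arginine-starved and leucine-starved groups.

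Cells register a lack of an amino acid by several routes. Uncharged tRNA activates the kinase GCN2, encoded by Eif2ak4, which phosphorylates eIF2alpha, lowers general translation and favours translation of ATF4, the transcription factor at the centre of the integrated stress response (ISR). The kinase complex mTORC1 is switched off at the lysosome through sensors such as CASTOR1 and SLC38A9, which bind arginine, after which TFEB and TFE3 can enter the nucleus and act on lysosomal genes. Arginine enters cells mainly through the cationic transporters of the SLC7 family and is also the precursor of ornithine and polyamines.

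The 6 libraries held 26001285 to 32710060 counts with arginine starvation and 21972201 to 30141744 without. Pluripotency markers stood far above markers of other cells. The summed CPM (counts-per-million, TMM-scaled) of 8 stem cell markers was 6340 to 6890 in Wt_Arg and 6780 to 7590 in Wt_Unstarved, against 18.8 to 24.1 and 16.8 to 21.7 for 8 fibroblast markers and 32.9 to 39.1 and 31.4 to 33.8 for 8 markers of differentiated lineages. Dcn, Lum and Postn, defining fibroblast genes, were too low to test, and Lum was at 0 in every unstarved library. Mitochondrial transcripts took 2.31% to 2.75% of counts in Wt_Arg and 2.33% to 2.99% in Wt_Unstarved. Gm42418, a gene that overlaps ribosomal RNA sequence, took 1.39%, 1.16% and 0.712% in Wt_Arg libraries 1 to 3 and 0.224%, 0.431% and 1.21% in Wt_Unstarved libraries 1 to 3. Its part in the results was not tested. On the first principal component of the 9 wild-type libraries, with 48% of the variance, the Wt_Arg libraries lay at -24.9 to -23.4, the Wt_Leu libraries at -12.2 to -7.87 and the Wt_Unstarved libraries at 31.0 to 38.0.

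Arginine starvation moved a large share of the measured transcriptome. Of 16140 genes tested with edgeR's quasi-likelihood test, 3379 (20.9%) were higher and 3229 (20.0%) lower at a Benjamini-Hochberg adjusted p under 0.05, together 40.9%. Most differences were small, since 58.7% of the called genes changed by less than 0.5 on the log2 scale, and 545 genes (3.38%) were higher and 198 (1.23%) lower by at least 1. The median log2 difference of all tested genes was -0.01. The CPM ranges of the 2 groups did not overlap for 50.6% of tested genes. With counting by library total in place of TMM scaling, the share of calls that were higher was 56.8%, against 51.1%. Log2 differences are Wt_Arg minus Wt_Unstarved unless another contrast is named, their ± is the standard error, and "rose" and "fell" are used for genes past that threshold. From bulk RNA, a lower level per cell and fewer cells that express a gene cannot be told apart.

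The 15 genes with the largest rise joined stress-response genes with clock-related repressors, a Notch ligand and a water channel. They were taken among called genes with a mean of at least 10 CPM and no overlap between groups. Separation of the groups thus follows from the choice. Bhlhe41 (chr6:145858243-145865558, minus strand, GRCm38), a basic helix-loop-helix repressor of the circadian clock, stood at 61.8, 72.0 and 55.0 CPM in Wt_Arg, against 4.62, 4.38 and 4.46 CPM in Wt_Unstarved. The log2 difference was 3.81 ± 0.15 (adjusted p = 2.37e-09). Hrk (chr5:118164648-118189478, plus strand), a BH3-only activator of cell death, had 28.5, 37.9 and 36.9 CPM in Wt_Arg and 5.45, 4.01 and 5.53 CPM in Wt_Unstarved (log2 2.78 ± 0.17, adjusted p = 7.8e-08).

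Aqp3, an aquaglyceroporin of the plasma membrane, was the tightest of these genes, with 135, 138 and 141 CPM in Wt_Arg and 32.1, 25.8 and 28.9 CPM in Wt_Unstarved (log2 2.25 ± 0.08). Crebrf, a regulator of CREB3 factors, had 96.0, 105 and 89.7 CPM with starvation and 19.8, 25.2 and 19.6 CPM without (2.17 ± 0.09). Dll1, a ligand of Notch receptors, had 33.9, 36.3 and 31.7 CPM against 7.05, 7.70 and 8.41 CPM (2.15 ± 0.10). The gaps between groups were several times the spread within them. Ciart, a circadian repressor that acts on CLOCK and BMAL1, had 63.0, 70.0 and 70.7 CPM in Wt_Arg and 16.4, 12.7 and 16.9 CPM in Wt_Unstarved (2.15 ± 0.11). Gata2, a haematopoietic and trophoblast transcription factor, was low throughout, at 19.1, 23.2 and 20.6 CPM in Wt_Arg and 6.02, 4.46 and 6.22 CPM in Wt_Unstarved (1.91 ± 0.14). The remaining members of this set were Chac1, Vldlr, Adm2, Atf3, Tsc22d3, Ddit3, Gadd45g and Nupr1, with log2 differences of 1.97 to 2.54.

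The 15 genes with the largest fall held, among others, a growth factor, transcription factors of early development and non-coding hosts of small RNAs. Dancr (chr5:74093060-74095406, plus strand), a long non-coding RNA that also hosts small nucleolar RNA, had 7.76, 7.04 and 7.34 CPM in Wt_Arg and 30.9, 26.7 and 25.8 CPM in Wt_Unstarved (log2 -1.92 ± 0.10, adjusted p = 1.33e-09). Mat2a, which encodes an enzyme that makes S-adenosylmethionine, had 246, 223 and 208 CPM in Wt_Arg and 566, 563 and 510 CPM in Wt_Unstarved (-1.27 ± 0.08). The same rule gave this set, so no member overlapped between groups. Cbr3, a carbonyl reductase, fell by 1.74 ± 0.15, Ddit4l, an inhibitor of mTORC1, by 1.61 ± 0.19, and Zc3h12a, an endoribonuclease that degrades cytokine mRNA, by 1.54 ± 0.13. Fgf15 (-1.46 ± 0.12), Gbx2 (-1.43 ± 0.19) and Foxd3 (-1.30 ± 0.09), the first a growth factor and the others transcription factors of early development, fell as well. Snhg3, Phlda3, Chrna9, Zfp750, Lrfn1 and Mob3a followed at -1.36 to -1.27.

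**Figure D1:**
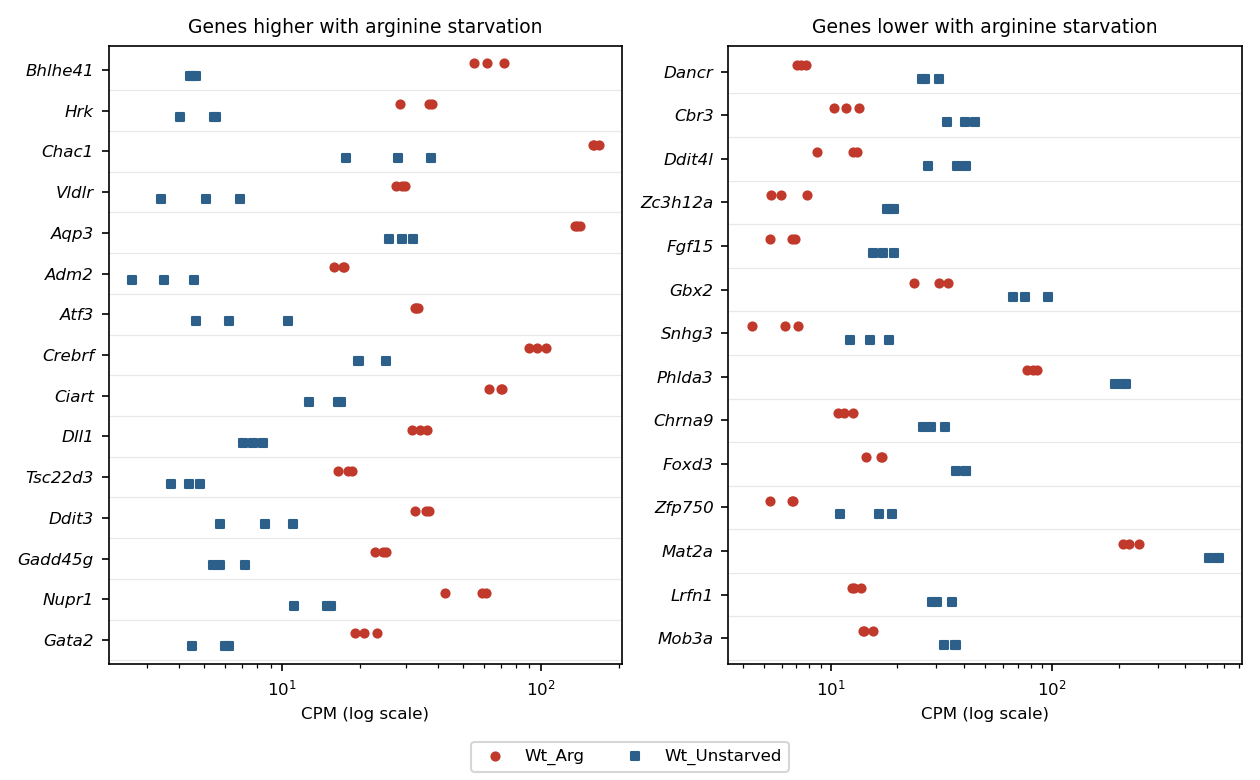
CPM on a log axis in each of the 3 Wt_Arg libraries (red circles) and 3 Wt_Unstarved libraries (blue squares), for the 15 genes with the largest rise (left) and 14 of the 15 with the largest fall (right) among called genes with a mean of at least 10 CPM and no overlap between groups. Bhlhe41 lies at 55.0 to 72.0 CPM with starvation and 4.38 to 4.62 CPM without, the widest gap of the genes shown.

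The ISR effectors, genes that ATF4 and its partners are known to act on, mostly rose. Of 24 tested members, 18 rose and 2 fell, with a median log2 difference of 0.92, beside -0.01 over all tested genes. Chac1 (chr2:119351229-119354381, plus strand), an enzyme that degrades glutathione, had 158, 160 and 167 CPM in Wt_Arg and 37.5, 17.6 and 28.1 CPM in Wt_Unstarved (2.54 ± 0.23, adjusted p = 8.74e-05). The unstarved libraries were spread, with library 1 highest, while the starved ones lay close together. The same order of unstarved libraries, 1 above 3 above 2, was seen in Trib3, a pseudokinase (173, 194 and 200 CPM in Wt_Arg and 80.5, 47.3 and 67.2 CPM in Wt_Unstarved, 1.54 ± 0.19), in Atf3, a stress-induced repressor (32.9, 32.5 and 33.3 against 10.5, 4.63 and 6.22 CPM, 2.18 ± 0.22), and in Stc2, a secreted glycoprotein (60.9, 69.0 and 70.0 against 25.2, 12.2 and 16.3 CPM, 1.88 ± 0.22).

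Inhbe, a subunit of activin E, was the member with the largest log2 difference, 2.96 ± 0.25, at 8.01, 10.2 and 12.4 CPM in Wt_Arg and 1.73, 1.02 and 1.07 CPM in Wt_Unstarved. Vldlr, a lipoprotein receptor, rose by 2.48 ± 0.16, Adm2, a peptide hormone, by 2.22 ± 0.14, Nupr1, a stress-linked chromatin protein, by 1.97 ± 0.18, and Herpud1, a part of the ER degradation machinery, by 1.84 ± 0.14. Fgf21, a metabolic hormone, was near the lower limit of measurement at 0.635, 1.07 and 1.10 CPM in Wt_Arg and 0.366, 0.0819 and 0.0929 CPM in Wt_Unstarved (2.23 ± 0.47). The other 6 members were Sesn2, Tnfrsf10b, Bbc3, Pmaip1, Ero1l and Xpot. Sesn2, which restrains mTORC1, stood at 355, 393 and 401 CPM in Wt_Arg and 371, 377 and 405 CPM in Wt_Unstarved (-0.00 ± 0.07, adjusted p = 0.967). Tnfrsf10b, a death receptor, fell by 0.36 ± 0.07, and Bbc3, a BH3-only protein, by 0.38 ± 0.11 (adjusted p = 0.015), a call lost without unstarved library 2 or 3.

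Among the stress bZIP factors, the transcription factors upstream of those genes, 5 of 9 tested members rose and 3 fell (median 0.44). Atf4 mRNA had 608, 623 and 636 CPM in Wt_Arg and 525, 374 and 480 CPM in Wt_Unstarved (0.44 ± 0.09, adjusted p = 0.00187). Ddit3, encoding CHOP, had 32.5, 35.9 and 36.9 CPM against 11.04, 5.73 and 8.55 CPM (2.04 ± 0.16, adjusted p = 2.01e-06). Both genes were higher in every starved library, and the rise of Atf4 mRNA was small beside that of Ddit3. Cebpb rose by 0.95 ± 0.12 and Cebpg by 0.65 ± 0.07, whereas Cebpa, low at 1.41, 0.975 and 1.06 CPM in Wt_Arg and 2.76, 2.83 and 3.02 CPM in Wt_Unstarved, fell by 1.32 ± 0.18. Atf5 had 91.5, 90.8 and 100 CPM in Wt_Arg and 120, 99.1 and 122 CPM in Wt_Unstarved, overlapping ranges (-0.27 ± 0.08, adjusted p = 0.012), and its call was lost without starved library 2, unstarved library 1 or unstarved library 3. Among the eIF2alpha kinases and their partners, 4 of 14 rose and 2 fell, not far from the shares of all tested genes (20.9% and 20.0%). Impact, an inhibitor of GCN2 activation, rose to 386, 405 and 387 CPM in Wt_Arg, against 247, 275 and 202 CPM in Wt_Unstarved (0.70 ± 0.09), and Ppp1r15a, the inducible eIF2alpha phosphatase subunit GADD34, rose by 0.61 ± 0.08. Eif2ak4 itself had 28.6, 29.04 and 28.6 CPM in Wt_Arg and 31.9, 33.2 and 29.6 CPM in Wt_Unstarved (-0.13 ± 0.07, adjusted p = 0.135).

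Promoter stretches of ISR genes that rose are shown because they hold the letters of the amino acid response element, the composite C/EBP-ATF sequence to which ATF4 is known to bind. The motif searched was TGATGNAA on both strands of a RefSeq window of 250 bases before to 50 bases after each start (GRCm38.p6), and capitals mark the match. Each stretch is 30 bases long and is read along the gene's strand.
Chac1, chr2:119351038-119351067, plus strand: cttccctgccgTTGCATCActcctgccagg
Trib3, chr2:152344028-152344057, minus strand: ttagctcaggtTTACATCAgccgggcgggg
Atf3, chr1:191183425-191183454, minus strand: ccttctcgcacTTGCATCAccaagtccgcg
Vldlr (1 of its 2 starts), chr19:27216809-27216838, plus strand: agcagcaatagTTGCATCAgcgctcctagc
Nupr1, chr7:126625562-126625591, minus strand: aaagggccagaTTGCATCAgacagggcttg
Herpud1, chr8:94386306-94386335, plus strand: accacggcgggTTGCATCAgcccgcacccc
Jdp2 (1 of its 3 starts), chr12:85599372-85599401, plus strand: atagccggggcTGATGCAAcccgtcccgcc
Inhbe, chr10:127352011-127352040, minus strand: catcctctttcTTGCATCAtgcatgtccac
Slc7a11, chr3:50443661-50443690, minus strand: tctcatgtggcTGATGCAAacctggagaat
Slc1a4, chr11:20332699-20332728, minus strand: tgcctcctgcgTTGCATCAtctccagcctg
Asns, chr6:7693214-7693243, minus strand: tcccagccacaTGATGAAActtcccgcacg

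The same letters stood in the window of 8 of the 18 ISR effectors with a promoter sequence and of 5 of 12 tRNA synthetases. For comparison, they stood in 2.73% of the 11190 tested genes with a sequence and in 4.51% of all 27025 genes with one. Among called genes the share was 4.39% of those that rose and 1.91% of those that fell, and it was 8.94% of those that rose by at least 1. The first match lay at base -193 in Chac1, -110 in Atf3 and Nupr1, -66 in Slc7a11 and -23 in Asns, counted from the start. No match was found in the window of Ddit3, and bases more than 250 before the start were not searched. A match describes letters and not binding.

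Transporters of arginine rose, Slc7a1 by the most. Slc7a1 (chr5:148327410-148399904, minus strand), which encodes the cationic amino acid transporter CAT1, had 246, 264 and 279 CPM in Wt_Arg and 157, 121 and 144 CPM in Wt_Unstarved (0.90 ± 0.08, adjusted p = 3.19e-07). Slc7a3, encoding CAT3, had 272, 280 and 282 CPM against 236, 230 and 245 CPM (0.23 ± 0.05, adjusted p = 0.00293). Starved libraries were above unstarved ones in both genes, by a wider gap in Slc7a1. Slc7a2, encoding CAT2, was barely expressed at 2.05, 2.68 and 2.57 CPM in Wt_Arg and 1.40, 1.88 and 1.72 CPM in Wt_Unstarved. Its log2 difference was 0.56 ± 0.19 (adjusted p = 0.0269), and the call was lost with DESeq2, in the 18-library fit and without starved library 2 or 3 or unstarved library 1 or 3.

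Of 12 tested cationic transporters, 8 rose and 2 fell (median 0.42). Pqlc2, the lysosomal exporter of arginine and lysine, rose to 19.2, 17.8 and 18.4 CPM in Wt_Arg, against 10.9, 9.29 and 10.5 CPM in Wt_Unstarved (0.85 ± 0.09). Slc38a9, the lysosomal arginine sensor and transporter, had 10.8, 10.3 and 9.38 CPM with starvation and 7.31, 7.49 and 7.29 CPM without (0.46 ± 0.10). Both lysosomal genes rose without overlap between groups. Slc3a2, the heavy chain shared by several exchangers, rose by 0.70 ± 0.07. The members that fell were Slc25a15, the mitochondrial ornithine carrier (-0.37 ± 0.06), and Slc7a6, a light chain of y+L exchange (-0.25 ± 0.07). Slc7a9, Slc3a1 and Slc6a14 were too low to test.

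Transporters of other amino acids moved in the same direction more often than not, with 11 of 21 higher and 5 lower (median 0.36). Slc7a11, the cystine/glutamate exchanger, had 6.07, 6.22 and 6.28 CPM in Wt_Arg and 1.33, 0.491 and 0.836 CPM in Wt_Unstarved (2.75 ± 0.21). Slc1a4, which carries neutral amino acids, rose to 76.7, 81.9 and 89.2 CPM, against 30.7, 20.3 and 27.2 CPM (1.66 ± 0.11), and Slc6a9, a glycine transporter, to 36.3, 41.9 and 42.2 CPM, against 17.5, 11.1 and 15.2 CPM (1.45 ± 0.12). All 3 were higher in every starved library. Slc7a5, the light chain LAT1, rose little (0.26 ± 0.07), and Slc38a2, a glutamine transporter, did not pass the threshold (0.12 ± 0.06, adjusted p = 0.137). Slc38a10 (-0.66 ± 0.07) and Slc15a4 (-0.59 ± 0.08) fell.

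Of 28 tested genes of arginine and polyamine metabolism, the enzymes that make or use arginine among them, 3 rose and 8 fell (median -0.12), where 20.9% of all tested genes rose and 20.0% fell. Ass1, argininosuccinate synthase, had 110, 112 and 122 CPM in Wt_Arg and 120, 130 and 130 CPM in Wt_Unstarved (-0.15 ± 0.07, adjusted p = 0.098). Asl, argininosuccinate lyase, had 20.7, 20.2 and 21.0 CPM against 22.7, 21.5 and 22.0 CPM (-0.10 ± 0.08, adjusted p = 0.331). Arg2, the mitochondrial arginase, had 1.24, 1.31 and 1.25 CPM against 1.10, 1.68 and 1.21 CPM (-0.06 ± 0.24, adjusted p = 0.864). None of the 3 passed the threshold, and Arg1, with 1 to 6 counts a library, was not tested.

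Several genes of the polyamine branch passed the threshold. Odc1, ornithine decarboxylase, had 1122, 1045 and 1086 CPM in Wt_Arg and 1271, 1168 and 1255 CPM in Wt_Unstarved (-0.18 ± 0.06, adjusted p = 0.0168), a call lost by library-size scaling and without starved library 2 or unstarved library 1. Azin1, the antizyme inhibitor that protects ornithine decarboxylase, rose by 0.48 ± 0.09, while the antizymes Oaz1 (-0.43 ± 0.08) and Oaz2 (-0.50 ± 0.08), spermidine synthase Srm (-0.44 ± 0.06) and spermine oxidase Smox (-0.62 ± 0.08) fell. With the replicate number as a block, 4 members were higher and 13 lower, Ass1 among them (-0.15, adjusted p = 0.0118), and without starved library 1, unstarved library 1 or unstarved library 3, 1 member was higher and 7 or 8 were lower.

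More charging enzymes and amino acid synthesis genes rose than fell. Of 20 cytosolic tRNA synthetases, 13 rose and 2 fell (median 0.25). Rars, the arginyl-tRNA synthetase, had 328, 309 and 316 CPM in Wt_Arg and 246, 261 and 215 CPM in Wt_Unstarved (0.40 ± 0.08, adjusted p = 0.000476), beside 0.67 ± 0.07 for Lars, which charges leucine, and 0.49 ± 0.08 for Eprs, which charges glutamate and proline. Farsa (-0.23 ± 0.06) and Hars (-0.22 ± 0.06) fell, Hars not without starved library 2 or unstarved library 1. Among 21 genes of amino acid synthesis 10 rose and 3 fell (median 0.09). Asns, asparagine synthetase, had 567, 531 and 568 CPM against 390, 349 and 366 CPM (0.59 ± 0.06). Aldh18a1, which makes the precursor of proline and ornithine from glutamate, rose to 155, 154 and 172 CPM in Wt_Arg, against 89.3, 80.4 and 87.5 CPM in Wt_Unstarved (0.90 ± 0.07). The folate enzymes Aldh1l2 (1.60 ± 0.15) and Mthfd2 (0.84 ± 0.08) and the transaminase Gpt2 (0.97 ± 0.10) rose, whereas Glul, glutamine synthetase, fell (-0.29 ± 0.06).

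**Figure D2:**
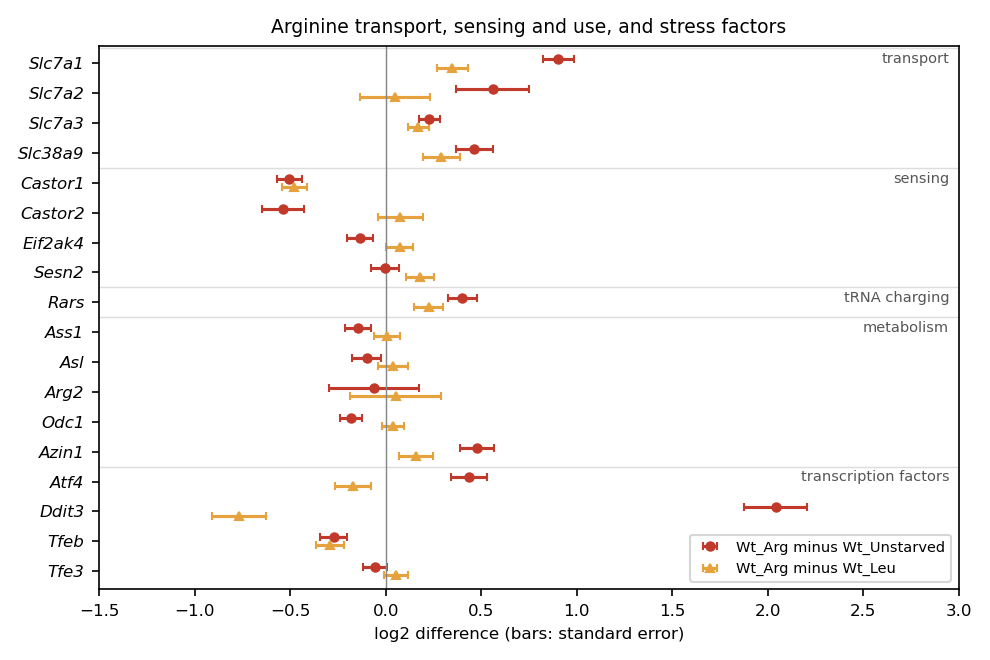
Log2 differences with standard errors for genes of arginine transport, sensing, tRNA charging and metabolism and for stress and lysosomal transcription factors, as Wt_Arg minus Wt_Unstarved (red circles) and Wt_Arg minus Wt_Leu (orange triangles). Slc7a1 lies at 0.90 and 0.35, Castor1 at -0.50 and -0.48, and Ddit3 at 2.04 and -0.77.

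In the mTORC1 pathway, both Castor genes fell while several lysosomal regulators rose. Castor1 (chr11:4218225-4222409, plus strand), the cytosolic arginine sensor, had 35.1, 31.4 and 32.2 CPM in Wt_Arg and 46.9, 46.4 and 46.7 CPM in Wt_Unstarved (-0.50 ± 0.07, adjusted p = 1.31e-05). Castor2, its partner, had 7.76, 8.87 and 7.30 CPM with starvation and 10.4, 12.7 and 11.8 CPM without (-0.54 ± 0.11). Both genes were lower in every starved library. Over the 39 tested genes of amino acid sensing, 16 rose and 7 fell (median 0.10). Fnip1 rose to 101, 98.7 and 98.6 CPM in Wt_Arg, against 43.6, 48.0 and 37.2 CPM in Wt_Unstarved (1.21 ± 0.08), and its partner folliculin, Flcn, rose by 0.67 ± 0.06. The GTPases Rragc (0.72 ± 0.07) and Rragd and the KICSTOR subunit Itfg2 (0.95 ± 0.06) rose too. Folliculin and FNIP1 form the activating protein for RagC and RagD.

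Most lysosomal genes rose, and no other of the 47 lists had so large a share of members that rose. Of 32 genes of the MiT/TFE factors and the lysosome, 26 rose and 1 fell (median 0.53). Hexa, a hexosaminidase, had 109, 130 and 137 CPM in Wt_Arg and 45.3, 42.4 and 46.2 CPM in Wt_Unstarved (1.49 ± 0.09). Ctsa, protective protein and cathepsin A, had 184, 198 and 206 CPM against 78.9, 80.3 and 85.7 CPM (1.26 ± 0.07). Mcoln1, the lysosomal calcium channel, had 53.4, 52.1 and 57.9 CPM against 21.5, 21.7 and 25.7 CPM (1.25 ± 0.08). In each of them the groups were far apart. Naglu, another lysosomal glycosidase, was low and rose by 1.95 ± 0.17. The transcription factors themselves did not rise in this way: Tfe3 had 176, 176 and 177 CPM in Wt_Arg and 170, 191 and 188 CPM in Wt_Unstarved (-0.05 ± 0.06, adjusted p = 0.525). Tfeb had 31.9, 28.5 and 31.6 CPM against 38.0, 35.6 and 37.4 CPM (-0.27 ± 0.07, adjusted p = 0.00571), a call lost in the 18-library fit and with the replicate block and GC correction together (-0.01). Genes of autophagy were divided, with 10 of 33 higher and 7 lower (median 0.07), or 9 and 4 without starved library 3 or unstarved library 3. Over all tested genes, 20.9% were higher and 20.0% lower. Sqstm1, the cargo receptor p62, rose by 0.28 ± 0.06, Atg14 by 0.54 ± 0.06 and Uvrag by 0.60 ± 0.07, while Atg101 fell by 0.63 ± 0.07.

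Promoter stretches of lysosomal and clock genes that rose are shown for the palindrome to which MiT/TFE factors (TCACGTGA) and, in its shorter form CACGTG, many other basic helix-loop-helix proteins are known to bind. Every TCACGTGA also holds a CACGTG, and both read the same on either strand. Capitals mark TCACGTGA in Mcoln1, Gla, Clcn7, Atp6v1a, Atp6v0d1 and Slc36a1 and CACGTG in Bhlhe41, Ciart and Per1.
Mcoln1, chr8:3500462-3500491, plus strand: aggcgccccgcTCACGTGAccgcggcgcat
Gla, chrX:134601215-134601244, minus strand: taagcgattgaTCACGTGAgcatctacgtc
Clcn7 (1 of its 2 starts), chr17:25133386-25133415, plus strand: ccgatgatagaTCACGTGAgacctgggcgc
Atp6v1a, chr16:44139373-44139402, minus strand: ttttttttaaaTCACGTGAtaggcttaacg
Atp6v0d1, chr8:105566050-105566079, minus strand: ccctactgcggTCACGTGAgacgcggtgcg
Slc36a1, chr11:55204325-55204354, plus strand: gggagccagcaTCACGTGAcagggcccgga
Bhlhe41, chr6:145865555-145865584, minus strand: ggtacgttccgCACGTGagctgggtgctgg
Ciart, chr3:95882326-95882355, minus strand: gcatctagagtCACGTGttgccggtaagct
Per1 (1 of its 2 starts), chr11:69098772-69098801, plus strand: gcacccaagtcCACGTGcagggatgtgtgt

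TCACGTGA stood in the window of 7 of the 24 lysosomal genes with a sequence, in 4.59% of the called genes that rose, in 0.755% of those that fell and in 2.04% of tested genes (1.12% of all promoters). The shorter CACGTG stood in 12 of the 24, in 16.9% of the genes that rose, in 9.82% of those that fell and in 11.6% of tested genes (8.09% of all promoters). Ciart held 3 such matches in its window and Gla held the longer form in 2 places.

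Most clock genes and their output factors rose, Bhlhe41 by the most. Of 17 tested, 10 rose and 1 fell (median 0.69). Bhlhe40, the paralog of Bhlhe41, had 120, 109 and 104 CPM in Wt_Arg and 35.6, 30.6 and 28.1 CPM in Wt_Unstarved (1.82 ± 0.09). Hlf (1.56 ± 0.19), Rora, Nr1d2 and Nr1d1 rose, while the activators Clock and Arntl and the core repressors Per2, Cry1 and Cry2 did not pass the threshold. Krüppel-like factors rose in 10 of 14 cases and fell in 3 (median 0.69), with Klf11 at 69.0, 74.5 and 75.2 CPM against 26.0, 25.5 and 28.7 CPM (1.45 ± 0.07) and Klf10 at 235, 250 and 238 CPM against 100, 92.0 and 97.9 CPM (1.32 ± 0.06). Among genes of the FOXO factors, which act when growth factor signalling is low, 14 of 22 rose and 3 fell (median 0.47). Bcl6 had 5.43, 5.39 and 4.58 CPM in Wt_Arg and 1.70, 1.47 and 1.86 CPM in Wt_Unstarved (1.62 ± 0.15), and the ubiquitin ligases Trim63 (1.34 ± 0.14) and Fbxo32 (1.34 ± 0.19) rose with it. Txnip, the alpha-arrestin that restrains glucose uptake, had 391, 412 and 430 CPM in Wt_Arg and 120, 129 and 138 CPM in Wt_Unstarved (1.67 ± 0.07), and Arrdc3 of the same family rose by 1.44 ± 0.06.

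More genes fell than rose in the lists of sterol synthesis, NRF2 antioxidant genes and p53 targets. Of 23 genes of sterol synthesis and uptake, 15 fell and 0 rose (median -0.36). The count that rose was also 0 at an unadjusted p under 0.05 in edgeR and with DESeq2, but 1 (Insig1, which retains the sterol sensor in the ER) with the replicate block with or without GC correction, with no filter and without unstarved library 2. Hmgcs1, the cytosolic HMG-CoA synthase, had 131, 143 and 116 CPM in Wt_Arg and 197, 279 and 184 CPM in Wt_Unstarved (-0.76 ± 0.16), and Sqle, squalene epoxidase, fell as well (-0.57). The unstarved libraries were the more spread in Hmgcs1, with library 2 highest. Of 18 NRF2 antioxidant genes, 10 fell and 1 rose (median -0.32). Srxn1, sulfiredoxin, had 21.9, 24.4 and 24.6 CPM against 48.9, 55.7 and 59.5 CPM (-1.21 ± 0.09), while Nfe2l2, which encodes NRF2, was the 1 member that rose (0.48 ± 0.07).

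Of 22 genes of p53 and its targets, 17 fell and 1 rose (median -0.59). Phlda3, an inhibitor of AKT, had 76.9, 85.6 and 82.4 CPM in Wt_Arg and 193, 209 and 215 CPM in Wt_Unstarved (-1.33 ± 0.07). Plk2 had 44.4, 48.4 and 49.7 CPM against 95.9, 122 and 106 CPM (-1.18 ± 0.09), and Cdkn1a, the cell cycle inhibitor p21, had 70.8, 83.2 and 87.3 CPM against 129, 152 and 165 CPM (-0.89 ± 0.11). No starved library reached the lowest unstarved one in any of the 3. Btg2, an antiproliferative gene, fell by 1.13 ± 0.10, and Rrm2b, a ribonucleotide reductase subunit, rose by 0.50 ± 0.14, a call lost without starved library 1. In the BCL2 family, 7 of 17 fell, among them the pro-apoptotic Bcl2l11 (-0.88 ± 0.09) and Bok (-0.68 ± 0.09), and 2 rose, Hrk and Bcl2. With the replicate block 5 rose, and without unstarved library 3 only Hrk did, since Bcl2 lost its call there and without starved library 1.

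**Figure D3:**
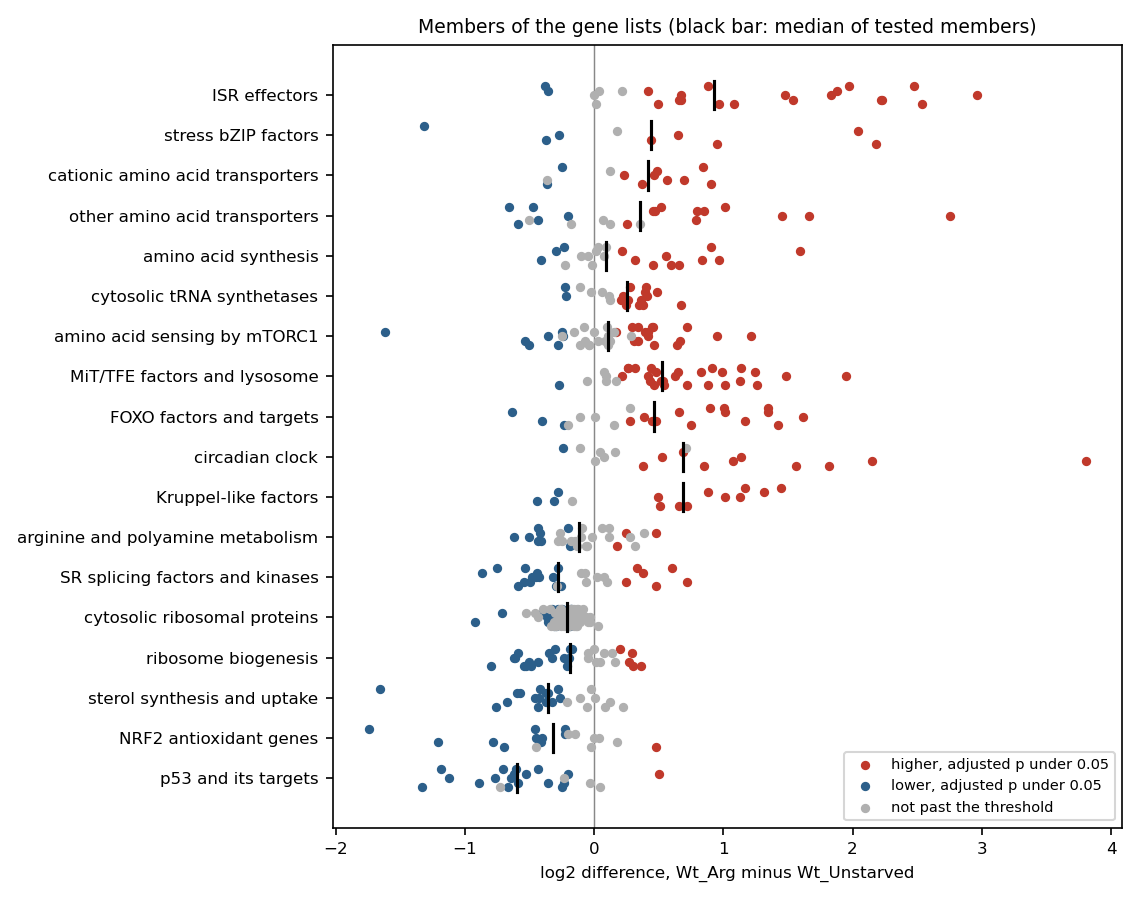
Log2 difference (Wt_Arg minus Wt_Unstarved) of each tested member of 18 gene lists, 1 list a line, with members that rose in red, members that fell in blue, others in grey and the median as a black bar. Medians run from -0.59 for p53 and its targets to 0.92 for the ISR effectors, beside -0.01 over all tested genes.

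More ribosome-related genes fell than rose. Most ribosomal protein genes did not pass the threshold in the fit by group only, but most did with the replicate block. Of 79 cytosolic ribosomal protein genes 25 fell and 0 rose (median -0.21), beside 20.0% lower among all genes. The count that rose was also 0 at an unadjusted p under 0.05 and with DESeq2. Rpl18 had 642, 652 and 538 CPM in Wt_Arg and 850, 730 and 779 CPM in Wt_Unstarved (-0.36 ± 0.08), and Rpl28 had 303, 287 and 230 CPM against 399, 369 and 318 CPM (-0.41 ± 0.11). Starved library 3 was the lowest in both. The count of members that fell was 13 without that library, 8 in the 18-library fit, 40 with no filter on low counts and 62 with the replicate block. Reads of these genes and of their many processed pseudogenes are hard to part, and the counting rule is not given in the sources used here. Of 31 genes of ribosome biogenesis 18 fell and 5 rose (median -0.19). Myc, which drives this programme, had 64.9, 60.8 and 61.8 CPM in Wt_Arg and 110, 107 and 110 CPM in Wt_Unstarved (-0.80 ± 0.06), and Rrs1, an assembly factor, fell by 0.62 ± 0.06, while Polr1a, the largest subunit of RNA polymerase I, rose by 0.36 ± 0.06.

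Host genes of small nucleolar RNAs moved in both directions, with 8 of 17 lower and 2 higher (median -0.50, or 9 lower and 5 higher with the block). Snhg12 had 22.6, 21.3 and 18.5 CPM in Wt_Arg and 42.2, 35.99 and 32.4 CPM in Wt_Unstarved (-0.83 ± 0.11), like Dancr and Snhg3. Snhg1 had 202, 238 and 181 CPM with starvation and 92.0, 91.4 and 91.1 CPM without (1.18 ± 0.09), and Snhg17 rose by 0.42 ± 0.07. Among factors of nonsense-mediated decay, which is known to degrade transcripts of such hosts, 5 of 17 fell and 4 rose, or 4 and 2 without starved library 1 or 3. These counts were not far from the 20.0% lower and 20.9% higher of all tested genes. Rbm8a, a core protein of the exon junction complex, fell most, with 216, 218 and 208 CPM in Wt_Arg and 356, 341 and 354 CPM in Wt_Unstarved (-0.71 ± 0.05).

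In the list of SR splicing factors and their kinases more genes fell than rose, and no other of the 47 lists had so large a share of members below leucine starvation. SR proteins carry stretches of alternating arginine and serine. The median share of arginine codons was 13.5% over the 28 tested genes of the list, kinases among them, against 5.68% over all tested genes with a coding sequence. The part of arginine codons in the response of this list, or of the ribosomal protein genes below, was not tested. Of the 28, 15 fell and 6 rose (median -0.28). Srsf4 (chr4:131873617-131901706, plus strand) had 83.0, 93.3 and 99.96 CPM in Wt_Arg, 124, 142 and 150 CPM in Wt_Leu and 161, 169 and 174 CPM in Wt_Unstarved (-0.87 ± 0.08 against Wt_Unstarved and -0.59 ± 0.08 against Wt_Leu, adjusted p = 2.46e-07 and 0.000129). Srsf6 had 445, 445 and 444 CPM in Wt_Arg, 608, 644 and 634 CPM in Wt_Leu and 672, 660 and 677 CPM in Wt_Unstarved (-0.59 ± 0.05 and -0.50 ± 0.05). In both genes the Wt_Arg libraries lay below those of the other groups.

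Tested directly against Wt_Leu, 17 of the 28 were lower in Wt_Arg and 2 higher, where 5.25% of all tested genes were lower and 4.76% higher. Srsf7 differed most, with 315, 355 and 315 CPM in Wt_Arg, 513, 571 and 495 CPM in Wt_Leu and 461, 470 and 460 CPM in Wt_Unstarved (-0.68 ± 0.07 against Wt_Leu, adjusted p = 1.22e-05). Tra2a, a splicing activator of related sequence, had 166.5, 176 and 153 CPM in Wt_Arg, 261, 253 and 224.5 CPM in Wt_Leu and 163.5, 159 and 141 CPM in Wt_Unstarved, so that the difference from Wt_Leu (-0.57 ± 0.07) came with a Wt_Leu level above both other groups. Srsf1, Srsf2, Srsf3, Srsf5, Srsf11 and Srrm1 were lower than in Wt_Leu by 0.44 to 0.58. Rbm39 (0.45 ± 0.07) and Rbm5 (0.41 ± 0.06) were the members higher in Wt_Arg. Leaving out 1 library at a time gave 13 to 15 members lower than in Wt_Leu, the 18-library fit 13, and the replicate block 18. The 79 ribosomal protein genes, with a median arginine codon share of 9.27%, had 0 members called against Wt_Leu in either direction with edgeR, where 4 were lower and 0 higher at an unadjusted p under 0.05, and 1 lower with DESeq2. With the replicate block 1 was higher and 10 lower, with the block and GC correction 1 and 7, and with no filter 0 and 2. Their median log2 difference from Wt_Leu was -0.08.

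**Figure D4:**
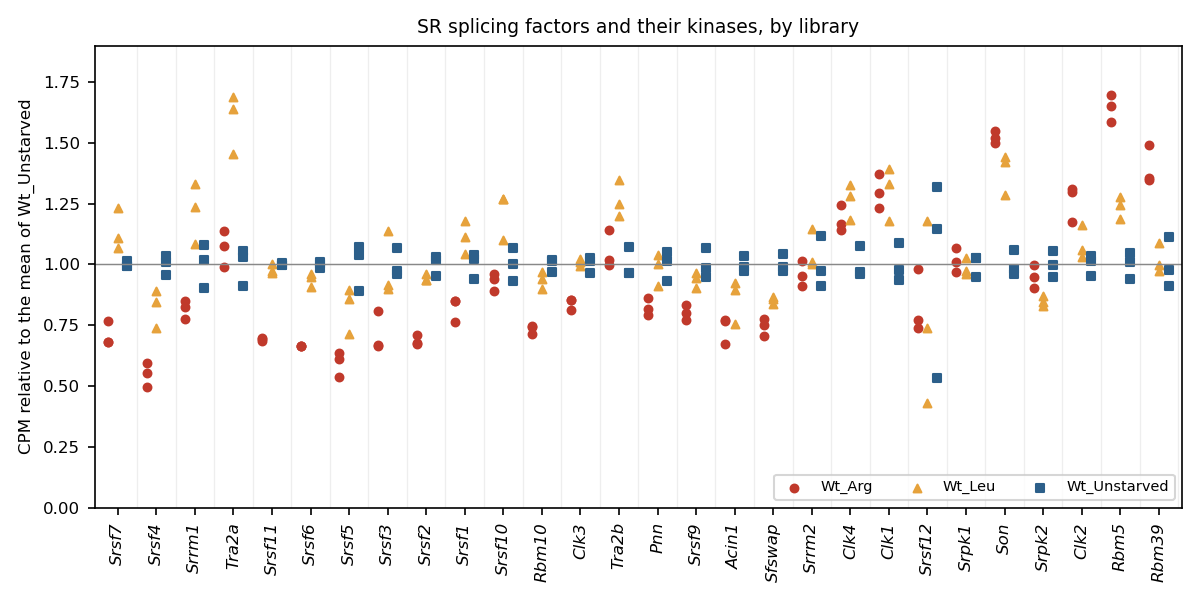
CPM of the 28 tested SR splicing factors and their kinases in each Wt_Arg (red circles), Wt_Leu (orange triangles) and Wt_Unstarved library (blue squares), relative to the mean of Wt_Unstarved, ordered by the log2 difference of Wt_Arg minus Wt_Leu from -0.68 (Srsf7) to 0.45 (Rbm39). For Srsf6 the 3 starved libraries lie at 444 to 445 CPM and the Wt_Leu libraries at 608 to 644 CPM.

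Other genes also parted arginine from leucine starvation, although the larger part of the response did not pass the test of that difference. In all 768 genes (4.76%) were higher and 847 (5.25%) lower in Wt_Arg than in Wt_Leu, 16 (0.0991%) and 13 (0.0805%) of them by at least 1. Bhlhe41 had 61.8, 72.0 and 55.0 CPM in Wt_Arg and 30.3, 43.9 and 33.9 CPM in Wt_Leu (log2 0.80 ± 0.12), Bhlhe40 differed by 0.81 ± 0.09, Hrk by 0.86 ± 0.14, Vldlr by 0.96 ± 0.14 and Aqp3 by 0.74 ± 0.07. Among the lists, 12 of 32 lysosomal genes, 6 of 17 clock genes, 6 of 24 ISR effectors and 6 of 21 non-cationic transporters were higher in Wt_Arg. Slc7a1 was higher as well, with 246, 264 and 279 CPM in Wt_Arg and 198, 209 and 212 CPM in Wt_Leu (0.35 ± 0.08, adjusted p = 0.0105), a call lost in the 18-library fit and without starved library 3 or Wt_Leu library 1. This comparison and the one with Wt_Unstarved share the Wt_Arg libraries.

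Ddit3 went the other way, with 32.5, 35.9 and 36.9 CPM in Wt_Arg and 57.1, 61.6 and 60.7 CPM in Wt_Leu (-0.77 ± 0.14, adjusted p = 0.00592). Castor1 had 35.1, 31.4 and 32.2 CPM in Wt_Arg and 46.9, 44.7 and 45.9 CPM in Wt_Leu (-0.48 ± 0.07, adjusted p = 0.000211), while Castor2, at a mean of 7.56 CPM in Wt_Leu, did not pass that test. Dancr (-0.74 ± 0.11), Mat2a (-0.42 ± 0.08) and Fgf18, a growth factor (-1.14 ± 0.11), were also lower in Wt_Arg than in Wt_Leu. Txnip, at 391 to 430 CPM in Wt_Arg and 388 to 440 CPM in Wt_Leu, did not pass. The count of genes that differed depended on the fit more than in the comparison with Wt_Unstarved: 1611 were higher and 1717 lower with the replicate block.

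The pluripotency genes stayed abundant and moved in a mixed way. Pou5f1, the central factor OCT4, had 1972, 2046 and 2171 CPM in Wt_Arg and 2493, 2398 and 2814 CPM in Wt_Unstarved (-0.32 ± 0.07, adjusted p = 0.00178). Sox2 (-0.10 ± 0.06), Nanog (-0.12 ± 0.06) and Zfp42 (0.03 ± 0.06) did not pass the threshold. With the replicate block Nanog did (-0.12, adjusted p = 0.0295). Esrrb had 918, 975 and 1043 CPM with starvation and 769, 793 and 826 CPM without (0.30 ± 0.09, adjusted p = 0.0109), a call lost without starved library 3 or unstarved library 1. Of 24 genes of naive pluripotency 10 rose and 4 fell (12 and 7 with the block). Tbx3 had 153, 156 and 152 CPM against 73.2, 63.4 and 68.5 CPM (1.17 ± 0.07), and Klf2, Klf4 and Klf5 rose by 0.72 ± 0.07, 0.50 ± 0.09 and 0.88 ± 0.07. Nr5a2 fell by 0.53 ± 0.07. Among 24 primed and lineage genes 4 rose and 6 fell, near the shares of all tested genes (20.9% and 20.0%). Otx2, a factor of the primed state, rose by 0.58 ± 0.13, and Eomes, at 2.12, 1.95 and 1.70 CPM against 4.02, 4.54 and 4.09 CPM, fell by 1.13 ± 0.14.

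Signalling genes of the FGF and Notch pathways were divided. Of 23 genes of FGF signalling and ERK feedback 10 fell and 5 rose (median -0.18). Fgf4, the autocrine growth factor of these cells, had 185, 173 and 185 CPM in Wt_Arg and 266, 260 and 287 CPM in Wt_Unstarved (-0.58 ± 0.06), and Fgf18 fell by 1.76 ± 0.10. Dusp4, a phosphatase of ERK, had 199, 205 and 177 CPM against 70.9, 60.3 and 55.5 CPM (1.64 ± 0.10). In the Notch pathway 7 of 17 genes fell and 6 rose. The ligand Dll1 rose, whereas the receptor Notch1 (-0.65 ± 0.09) and the targets Nrarp (-1.27 ± 0.12) and Hes6 (-0.71 ± 0.09) fell. Another target, Hes1, rose (0.79 ± 0.07), so the targets moved in both directions. Genes of DNA replication rose slightly, 15 of 27 against 2 that fell (median 0.20). Mitotic genes had 6 in each direction of 20, with Bub1 higher (0.62 ± 0.08) and Aurkb lower (-0.86 ± 0.07), or 3 higher and 7 lower with the block. Without the block, 20.9% of all tested genes were higher and 20.0% lower.

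Replication-dependent histone genes, whose mRNAs mostly lack a poly(A) tail, were counted as a sign of RNA handling, and 9 of 20 tested rose and 0 fell (median 0.57), with 0 lower also at an unadjusted p under 0.05 and with DESeq2. Their summed level was 51.0, 56.9 and 53.9 CPM in Wt_Arg and 28.5, 35.8 and 39.6 CPM in Wt_Unstarved. Among unstarved libraries this sum had the same order as Gm42418, and among starved libraries it had not. Wt_Arg library 3, with Gm42418 at 0.712%, had 53.9 CPM, and Wt_Unstarved library 3, with 1.21%, had 39.6 CPM. All 9 histone genes that rose were higher in the first of these libraries than in the second. They were called higher with both libraries in the test, so this order follows largely from the choice. The part of RNA handling in this difference was not tested.

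The responses were also compared with those of GCN2-deficient cells, as the difference of differences. In the Gcn libraries Eif2ak4 stood at 4.03 to 6.37 CPM, against 27.0 to 33.4 CPM in the 9 wild-type libraries. The label gives the genotype but no clone, so the genotype and the history of the line cannot be told apart. Of 16924 genes in the 18-library fit, 390 (2.3%) responded differently, 105 (0.62%) with a higher and 285 (1.68%) with a lower log2 difference in Gcn. By library size in place of TMM the balance turned to 298 higher and 162 lower, and with the replicate block within genotype the counts were 1000 and 1505, so a gene that did not pass may still differ.

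Of the 15 genes with the largest rise, 10 responded differently, all with a smaller log2 difference in Gcn. These genes, like those with the largest fall, were chosen by their wild-type response, which is subtracted in this difference. The choice itself thus favours a smaller response in Gcn. Crebrf was the nearest to the threshold (-0.55 ± 0.15, adjusted p = 0.0473), and its call was lost in 10 of the 12 fits that left out 1 library. Chac1 had 7.56, 8.69 and 8.55 CPM in Gcn_Arg and 28.6, 22.6 and 18.7 CPM in Gcn_Unstarved, a level lower with starvation, and the response differed by -4.03 ± 0.32 (adjusted p = 2.46e-06). Ddit3 had 6.97, 9.84 and 9.91 CPM in Gcn_Arg and 15.0, 16.5 and 15.5 CPM in Gcn_Unstarved (-2.87 ± 0.24). Hrk had 16.2, 17.0 and 12.4 CPM in Gcn_Arg and 8.53, 8.28 and 7.55 CPM in Gcn_Unstarved, still higher with starvation (-1.87 ± 0.22). The 5 that did not pass were Bhlhe41, Aqp3, Dll1, Gadd45g and Gata2.

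Aqp3 had 189, 207 and 170 CPM in Gcn_Arg and 34.3, 32.3 and 43.0 CPM in Gcn_Unstarved, and its response differed by 0.12 ± 0.14. Bhlhe41 had 30.8, 38.6 and 33.4 CPM in Gcn_Arg and 3.61, 3.14 and 3.93 CPM in Gcn_Unstarved (-0.54 ± 0.21, adjusted p = 0.198). Over the 15 genes with the largest fall the difference between the genotypes was -0.46 to 0.87. Of these 0 passed in edgeR, 8 had an unadjusted p under 0.05 and 4 passed with DESeq2. Among the 4 were Ddit4l, Phlda3 and Foxd3, with differences in edgeR of 0.87, 0.66 and 0.48, each a smaller fall in Gcn. Asns did not pass either (-0.38 ± 0.13, adjusted p = 0.118).

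**Figure D5:**
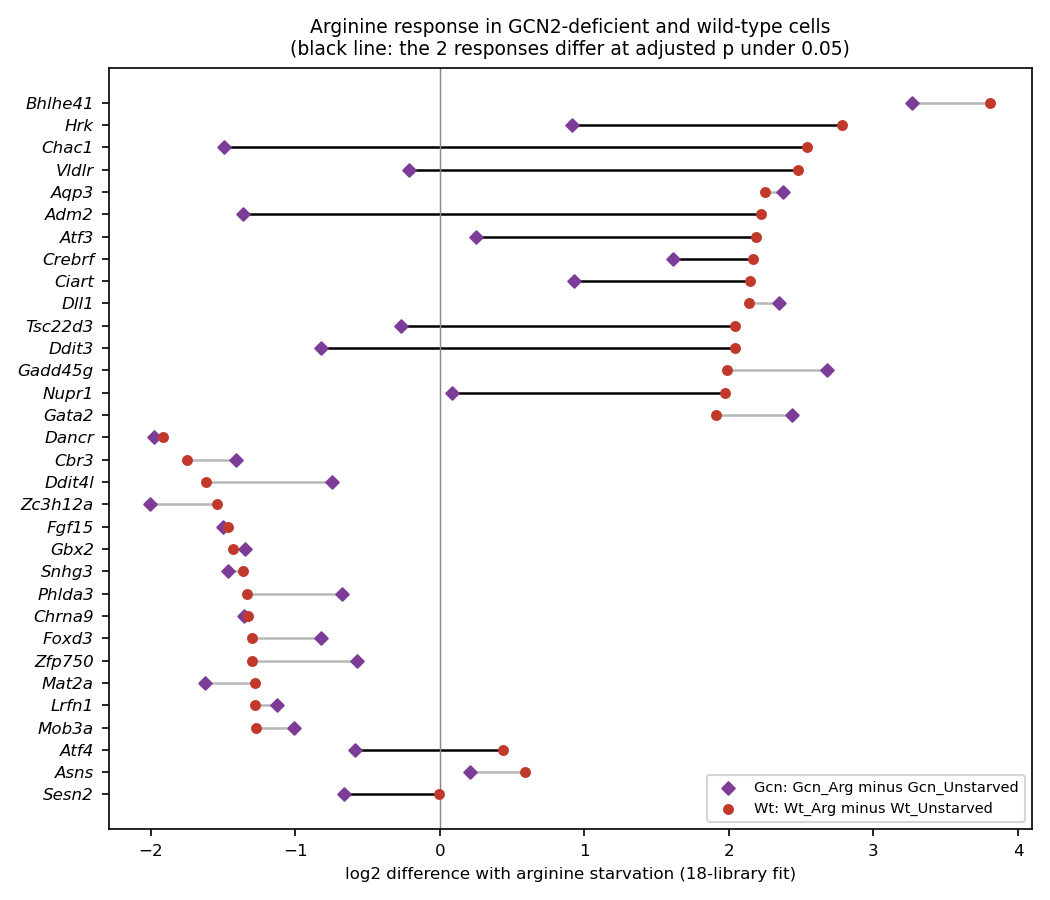
Log2 difference with arginine starvation in GCN2-deficient cells (purple diamonds, Gcn_Arg minus Gcn_Unstarved) and wild-type cells (red circles, Wt_Arg minus Wt_Unstarved) for 29 of the 30 genes of largest change and for Atf4, Asns and Sesn2, from the 18-library fit, with a black line where the 2 responses differ at an adjusted p under 0.05. Chac1 shows the widest gap, -4.03, and the genes that fell in wild-type cells are joined by grey lines.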

How the data were processed

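Poly(A) RNA was sequenced from 18 libraries of mouse E14 cells with a directional kit from 1 µg of RNA and read for 43 bases from each end, per the labels' protocols. The authors deposited whole-number read counts per Ensembl gene. STAR 2.7.4a, HTSeq and the build GRCm38 are named in the submitters' processing notes, while for the annotation release, the strand setting and the rule for reads that match several genes nothing is given in the sources used here. A second deposited table holds the same genes as counts divided by size factors (a signal per gene), which the authors made for their own comparison and which entered no test here.

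From the deposited counts, edgeR 4.0.16 was run in R 4.3.3 with TMM scaling, filterByExpr and robust quasi-likelihood fits on the 9 wild-type libraries, with Benjamini-Hochberg adjustment over all 16140 genes tested and a threshold of 0.05. The difference between genotypes was an interaction term in a fit of all 18 libraries. Standard errors were the log2 difference divided by the square root of the F statistic. CPM are TMM-scaled, and the counts' totals, 21972201 to 32710060 in the 6 libraries compared, set their precision, counting error only. The procedure was also tested on simulated data. GENCODE vM21 gave symbols for 55230 of 55471 gene IDs, coordinates and coding sequences, and RefSeq (GRCm38.p6) gave promoters.

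Genes were named by rule: the 15 largest changes in each direction among called genes with a mean of at least 10 CPM and no overlap between groups, genes of arginine handling, and the leading members of 47 lists (1013 of 1018 entries matched). The members and lists were chosen with earlier results of these data known. Some results that the rule would name are not reported here. Symbols outside this rule were chosen after their values were seen. Alternatives were DESeq2 1.42.0, its size factors, library size only, no filter, limma-voom (limma 3.58.1), other sets of libraries, leaving out each library, and the replicate number as a block. Deviations from the group means of equally numbered Wt_Arg and Wt_Unstarved libraries correlated at 0.231, 0.111 and 0.23 across genes. Other pairs gave -0.186 to -0.0407, but centring on the group means ties these values to the first, so they are no independent contrast. The numbers were taken to pair the samples in the replicate block only. The main fits, which gave the p-values and standard errors, had the group alone.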

Additional observations from a re-analysis of the deposited data

Results flagged for a closer look

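The arginine response of 12 named genes differed between GCN2-deficient and wild-type cells by the interaction test of edgeR in the 18-library fit, each with a smaller log2 difference in Gcn. Of all genes in that fit, 2.3% responded differently. Apart from Atf4 and Sesn2, the genes were chosen by a large rise in wild-type cells, which is subtracted in this difference and so favours a smaller value in Gcn. Among ISR genes the difference (Gcn response minus Wt response) was -4.03 for Chac1, -3.58 for Adm2, -2.87 for Ddit3, -2.69 for Vldlr, -1.94 for Atf3 and -1.89 for Nupr1. Atf4 mRNA differed by -1.02, with a mean of 272 CPM in Gcn_Arg and 407 CPM in Gcn_Unstarved, and Sesn2 by -0.66, with 238 and 377 CPM. Sesn2 did not pass the threshold in wild-type cells. Tsc22d3, a glucocorticoid-responsive gene, differed by -2.31, Hrk by -1.87, Ciart by -1.22 and Crebrf by -0.55. Crebrf lost its call in 10 of the 12 fits that left out 1 library. Why these responses differ was not tested.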

How the results depend on the processing

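The counts for Wt_Arg against Wt_Unstarved (3379 higher, 3229 lower) stayed within 1.5 times under every alternative run, and 231 of 273 named genes kept direction and side of the threshold in all of them. Chordc1 alone reversed, to -0.073 with the replicate block and GC correction, where it was not called. Equally numbered libraries were taken as pairs for the replicate block, though no label states a pairing, and the main fits had the group only. The block gave 4025 higher and 4069 lower for that comparison. Beyond the blocked values given in the report, it ended no call of a gene named there in that comparison.

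Against Wt_Leu (768 higher, 847 lower), the counts were 1611 and 1717 with the replicate block, 1683 and 1595 with the block and GC correction, and 406 and 510 in the 18-library fit, and leaving out 1 library gave 408 to 532 higher and 463 to 726 lower. For the interaction (105 higher, 285 lower), DESeq2 gave 237 and 549, library size only 298 and 162, no filter 136 and 641, the replicate block within genotype 1000 and 1505, and omission of the 3 Gcn libraries numbered 1 gave 184 and 292. Leaving out 1 library gave 38 to 160 higher and 142 to 365 lower. By library size only, 64.8% of interaction calls were higher, against 26.9%. The cause of these shifts was not tested.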

Other observations

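More heat shock and proteasome genes fell than rose, where 20.9% of all tested genes rose and 20.0% fell. Of 19 cytosolic heat shock genes 8 fell and 2 rose (median log2 difference, Wt_Arg minus Wt_Unstarved, -0.08). Dnajb1, a co-chaperone, had 73.0, 73.4 and 77.6 CPM in Wt_Arg and 121, 140 and 158 CPM in Wt_Unstarved (-0.90 ± 0.08). Of 21 ER chaperone and unfolded protein response genes 6 fell and 3 rose (-0.06), not far from those shares, and Hspa5, the chaperone BiP, fell by 0.31. Of 32 proteasome genes 14 fell and 1 rose (-0.12). In glycolysis and glucose uptake 7 of 19 fell and 3 rose, and Pfkfb3, which makes an activator of glycolysis, had 45.2, 39.9 and 39.2 CPM in Wt_Arg and 23.1, 21.2 and 20.5 CPM in Wt_Unstarved (0.94 ± 0.08). In the methionine cycle, where Mat2a fell, 4 of 11 rose and 4 fell. Of 13 genes of 2-cell-like cells 1 was called, lower.

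Long non-coding classes were called higher more often than lower: 103 of 366 tested lincRNA genes were higher and 24 lower, and 63 of 285 antisense genes were higher and 20 lower, beside 3038 higher and 3075 lower of 13687 protein-coding genes. Reads of antisense genes and their partners are uncertain, as the strand setting of the counting is not given in the sources used here. The median share of arginine codons was 5.30% in genes that rose, 6.22% in genes that fell and 5.68% in all tested. GC content moved with it, at medians of 47.0% in genes that rose and 53.2% in genes that fell, and its part was not tested beyond the following split. Across 13642 genes, which are not independent and share the 9 libraries, Spearman's rho between the arginine codon share and the log2 difference was -0.178 against Wt_Unstarved and -0.193 against Wt_Leu, and within 5 bins of GC content it was -0.125 to -0.0803 and -0.165 to -0.136.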
